A study of Mus musculus with 2 samples.

Results

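The sequence described is the stretch of mouse chromosome 3 from the end of Usp13 through Pex5l, Ttc14, Ccdc39, Fxr1 and Dnajc19 into the 5′ part of Sox2ot, a span of 1.4 Mb whose probes run from chr3:32800130 to 34199992 in the mm9 build. Its members are the fixed windows of 1 kb that hold at least 3 array probes with their midpoint in this stretch. They number 1066 of the 14947 windows on the whole array, and 12048 probes fall into the stretch. The rule that selects these windows uses position alone and no measured value. The stretch itself was chosen with earlier results of these data known.

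Rad21 was profiled by ChIP-chip, in which immunoprecipitated chromatin is read on a tiling array, in RAG cells, a renal adenocarcinoma line from the BALB/c mouse strain in which the study describes the eye and pancreas gene Pax6 as inactive (Pax6-OFF). The series holds 1 group of 2 arrays, replicates 1 and 2, each from its own flask of untreated, formaldehyde-fixed cells. On each array immunoprecipitated DNA was hybridised together with input DNA, and both had been amplified and amplified again across the whole genome. There is no other cell line, antibody or control immunoprecipitation in the comparison, so the contrasts available are Cy3 against Cy5, one position against another, and replicate 1 against replicate 2.

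Rad21 is a subunit of cohesin, the ring complex that holds sister chromatids together and that forms chromatin loops by extrusion. CTCF is a zinc-finger DNA-binding protein at whose oriented sites extruding cohesin is often halted, so Rad21 peaks in many tissues lie over CTCF motifs, and the strand of the motif is used to orient a loop anchor. In the study, such sites served to place anchors on a chromatin chain with beads of 1 kb, which is why windows of that size were used here. The genes of the flank differ in role. Pex5l encodes a protein that controls the trafficking of pacemaker (HCN) channels in neurons. Ccdc39 encodes a structural protein of motile cilia. Fxr1 encodes an RNA-binding protein of the fragile X family, Dnajc19 a co-chaperone of the mitochondrial inner membrane, and Ttc14 a tetratricopeptide-repeat protein. Sox2ot is a long noncoding RNA whose gene spans Sox2 and begins inside this stretch.

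Values are log2 ratios of the Cy3 over the Cy5 signal, centred on the median of each array, so that 0 is the typical probe. The labels put input DNA in Cy3 and immunoprecipitated DNA in Cy5 for either replicate, and dyes were not swapped. The direction used here is the opposite of that labelling and is the direction of the value table the authors deposited. Which channel held the immunoprecipitated DNA is not settled by these sources, and results are therefore given by dye. In total 11 regions higher in Cy3 were called in the flank, numbered R1 to R11 along the chromosome, and 0 higher in Cy5. The whole array held 209 and 5. At 5, or 0.287 per Mb, a count of 0 on the Cy5 side does not set this flank apart. The thresholds differed, 0.634 on the Cy3 side and 1.105 on the Cy5 side, since each is set from the values on the opposite side. With 0.634 in both directions the counts were 11 and 18.

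The sequences that matter most are those at the regions. The search used a CTCF core of 12 letters (CC, any 3 bases, AG, any 2 bases, GGC), matched exactly on both strands, and 5 of the 11 regions held it within 500 bp of their summit. Each match is shown with 14 bases on either side, 5′ to 3′ on the strand of the match, with the core in capitals (mm9).
R3, chr3:33817868-33817907, minus strand: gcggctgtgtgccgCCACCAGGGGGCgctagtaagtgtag
R4, chr3:33855372-33855411, plus strand: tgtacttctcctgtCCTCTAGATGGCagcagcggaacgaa
R4, chr3:33855795-33855834, plus strand: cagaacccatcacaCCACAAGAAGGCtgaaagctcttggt
R6, chr3:34049150-34049189, plus strand: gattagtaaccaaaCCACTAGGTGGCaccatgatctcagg
R9, chr3:34105465-34105504, plus strand: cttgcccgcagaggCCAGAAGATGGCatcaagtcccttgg
R11, chr3:34186968-34187007, plus strand: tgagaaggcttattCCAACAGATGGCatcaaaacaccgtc

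A CTCF consensus of the same length, searched with at most 1 mismatch and chosen after the values had been seen, added the regions R2 and R10. It was found at 7 of the 11 regions, or 63.6%, and at 133 of the 209 regions on the whole array, also 63.6%. Of all windows on the array 7.72% hold it. In the following pair the capitals mark that consensus match, which lacks the exact core.
R2, chr3:33723631-33723670, plus strand: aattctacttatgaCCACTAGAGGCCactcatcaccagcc
R10, chr3:34130966-34131005, plus strand: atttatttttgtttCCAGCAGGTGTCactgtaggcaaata

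The centres of the matches of R6, R2 and R10 lay 4, 18 and 23 bp from the summit, and these 3 regions had the highest summits of the flank, 1.80, 1.77 and 1.78, with R4 next at 1.75. Of the regions shown, only R3 had its match on the minus strand, while those of R2, R4, R6, R9, R10 and R11 lay on the plus strand. For R1, R5, R7 and R8 neither search found a match within 500 bp of the summit.

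Along the flank, windows that differed between the channels were tested with limma, which sets the mean of both arrays against 0 and adjusts p over all 14947 windows. At an adjusted p under 0.05, 29 of the 1066 windows were higher in Cy3, or 2.72%, against 3.69% of the windows on the whole array. Higher in Cy5 were 83 windows, or 7.79%, against 5.43% on the whole array. The Cy3 side held the larger differences. Its windows had a median of 0.58 and ranged from 0.39 to 1.56, and 9 passed 1 log2 unit. The Cy5-side windows had a median of -0.51, ranged from -0.80 to -0.39, and 0 passed 1 log2 unit. Every window called in either direction had the same sign on both arrays, as did 791 of all 1066 flank windows. The test sets the mean of these same arrays against 0, so the shared sign of called windows was largely built in. With a variance prior that follows the mean level, 31 of the flank windows were higher in Cy3, against 647 windows, or 4.33%, on the whole array. In that fit 0 windows were higher in Cy5, in the flank and on the whole array alike. Even so, 242 of the flank windows had an unadjusted p under 0.05 on the Cy5 side in that limma fit.

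The called windows were unevenly placed. The stretch from the left end to the first region, 889.7 kb, holds Pex5l and the long gene-poor interval after it. There 630 of 890 possible windows were measured, and 1 was higher in Cy3 and 72 were higher in Cy5. That 1 window, at 33689000, overlaps the edge of R1. From the first region to the right end 436 of 510 possible windows were measured, and 28 were higher in Cy3 and 11 in Cy5. The mean of the windows was -0.22 on replicate 1 and -0.20 on replicate 2 in the left stretch, and -0.07 and -0.02 in the right one. GC content averaged 40.9% in the left stretch and 41.9% in the right one. With the GC trend removed the means over both arrays were -0.12 and 0.01. Whether GC content bears on the difference was not tested. Normexp background correction called 4 regions in the left stretch, and loess or removal of the GC trend 1 each.

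**Figure D1:**
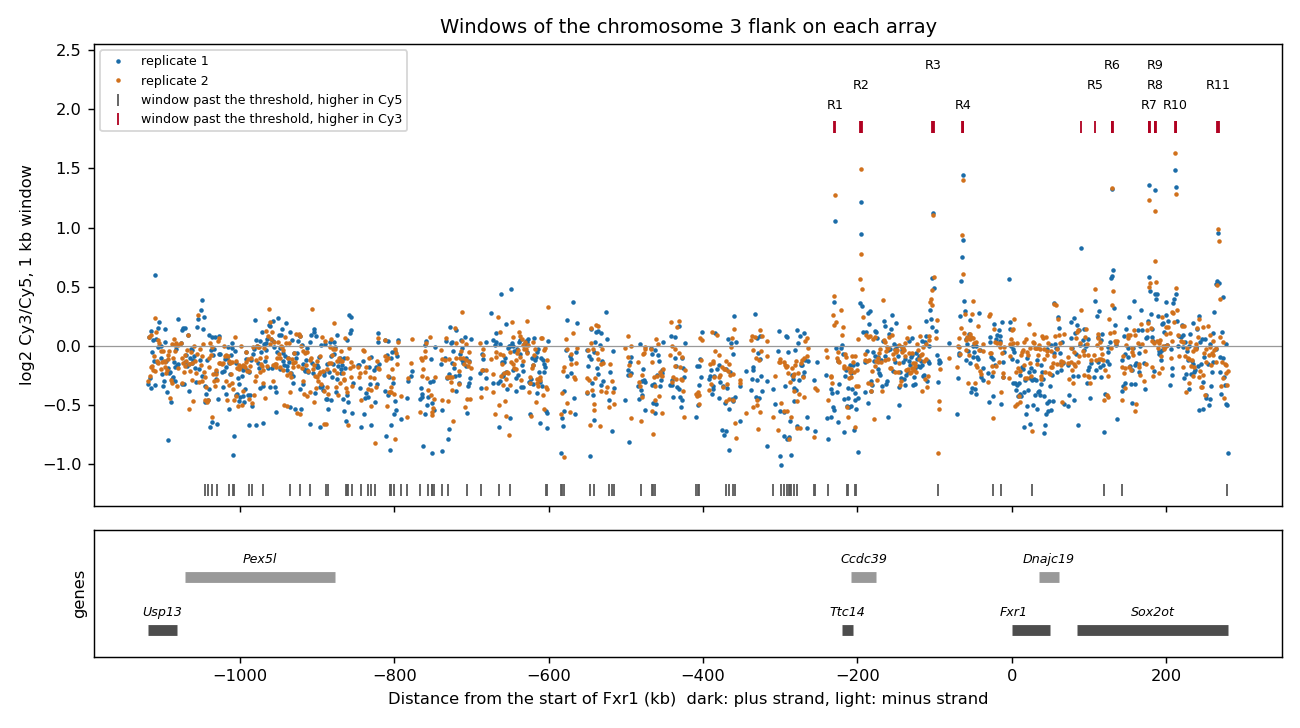
Each point is a 1 kb window on 1 array, with the log2 Cy3/Cy5 ratio on the vertical axis and the distance from the start of Fxr1 in kb on the horizontal axis. Ticks mark windows past the threshold in each direction, labels give the 11 regions, and bars below show the genes. The 11 regions and all windows higher in Cy3 lie in the right part of the plot, from R1 on, while windows higher in Cy5 are densest between Pex5l and Ttc14.

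Regions were called from a running median over 400 bp to each side of a probe, at a threshold of 0.634. They covered 13.6 kb, or 0.97% of the flank. The 11 regions overlapped 25 of the 1066 windows, all of them called higher in Cy3, while 3.22% of the windows on the whole array overlap such a region. Regions and window calls use the same ratio, so their overlap is largely built in. Their median length was 1466 bp, from 240 to 2371 bp.

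R1 (chr3:33689707-33690426) lies between genes, 8.48 kb before the start of Ttc14. Its mean over 12 probes was 1.04 on replicate 1 and 1.23 on replicate 2, or 1.13 ± 0.14 (SD, n = 2). At 33.5% it had the lowest GC content of the 11. R2 (chr3:33723098-33724742) is in an intron of Ccdc39, and it averaged 1.17 and 1.23, or 1.20 ± 0.04 (SD, n = 2). Its summit, the highest running median of its probes, reached 1.77 and was at 1.57 on replicate 1 and 1.92 on replicate 2. R1 and R2 thus enclose Ttc14 and the 3′ part of Ccdc39, 32.7 kb apart.

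R3 and R4 lie in the interval between Ccdc39 and Fxr1. R3 (chr3:33816805-33818270) was almost the same on both arrays, at 0.88 and 0.88 over 21 probes. R4 (chr3:33854105-33856475) was the longest region and averaged 1.14 and 1.13, with a summit of 1.75. Its summit window (33855000 to 33855999) was at 1.446 and 1.398, with a limma adjusted p of 0.0003. R4 holds a pair of core matches on the plus strand, and the 8 or 9 probes around each averaged 1.498 and 1.624. The nearest start of a protein-coding gene, that of Fxr1, lies 63.2 kb from the summit of R4.

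After R4 came the widest interval between neighbouring regions, 170.5 kb to R5. It holds the whole of Fxr1 and Dnajc19, where 61 windows were measured and 0 were higher in Cy3, against 2.72% of all flank windows. With so few windows, 0 is not far from that share. GC content over these 2 genes averaged 37.8%, and the mean was -0.30 on replicate 1 and -0.08 on replicate 2. Regions were absent there in 9 of the 13 settings of the region caller, the reported one included, and 1 region appeared there under normexp, under loess and with the threshold at the 0.95 quantile, and 2 with the GC trend removed.

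R5 to R11 lie within introns of Sox2ot. R6 (chr3:34048956-34049929) had the highest summit of the flank, 1.80, and averaged 1.33 and 1.34 over its 15 probes. R10 (chr3:34130180-34132162) had the highest mean, 1.385 and 1.403, or 1.39 ± 0.01 (SD, n = 2). The window with the largest value of the flank, 34130000 to 34130999, overlaps R10 and was at 1.49 and 1.63. R7 (chr3:34096627-34098306) averaged 1.12 and 1.02, and its summit lies 1.65 kb past an internal start of Sox2ot. R9 (chr3:34105615-34106034) averaged 1.29 and 1.14 over 7 probes. R11 (chr3:34185934-34187733) was at 0.79 and 0.95.

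R5 and R8 were the 2 lowest regions. R5 (chr3:34026983-34027282) rests on 5 probes, which averaged 0.47 and 0.70, and its summit of 0.68 lies just past the threshold. R8 (chr3:34104668-34104907) rests on 4 probes and differed most between the arrays, at 0.52 and 1.00, or 0.76 ± 0.34 (SD, n = 2). R8 and R9 are separated by 707 bp that hold 0 probes (34104908 to 34105614), and the core match assigned to R9 lies in that untiled gap. Whether R8 and R9 form 1 region therefore cannot be told from these arrays.

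**Figure D2:**
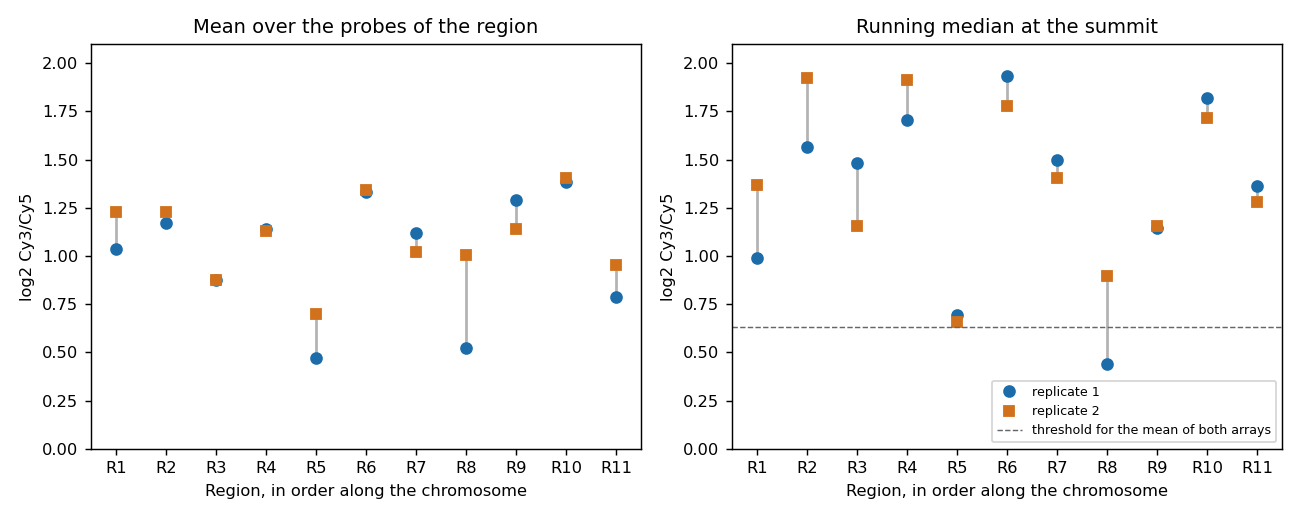
Points give the log2 Cy3/Cy5 ratio of R1 to R11 on replicate 1 (circles) and replicate 2 (squares), as the mean over the probes of the region (left) and as the running median at the summit (right), with a dashed line at the threshold of 0.634 for the mean of both arrays. The arrays lie close together for R4, R6 and R10 on the left, and R8 shows the widest gap in that panel, 0.52 against 1.00.

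Each array was also called alone, with its own threshold. Replicate 1 alone gave 9 regions in the flank, and 9 of these overlapped a region of replicate 2 alone, which gave 11. Of the 11 joint regions 9, or 81.8%, were called on both arrays alone, R8 was called on replicate 2 alone, and R5 on neither. On the whole array this share was 74.6%. The joint call uses both arrays, so part of this overlap is built in. All 11 summit windows passed the limma threshold, with adjusted p from 0.0003 (R4) to 0.0389 (R5). Summits were picked for a high value of the same ratio on the same arrays. Passing was therefore largely built in, and these p do not test the regions independently. With loess the summit window of R5 had a limma adjusted p of 0.053, against 0.0389 in the fit above.

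The regions were bright in Cy3, and in most of them Cy5 was raised as well. Against the flank median of the channel, the Cy3 signal, averaged over the probes of a region, was higher by 1.01 (R1, replicate 2) to 2.56 log2 units (R10, replicate 1). The Cy5 signal lay between -0.30 (R1, replicate 2) and 1.44 (R8, replicate 2). R1 was the only region in which Cy5 was below its flank median on both arrays, at -0.08 and -0.30. R8 had the brightest Cy5 signal of the set on both arrays, and whether signal in Cy5 bears on the height of the ratio was not tested.

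**Figure D3:**
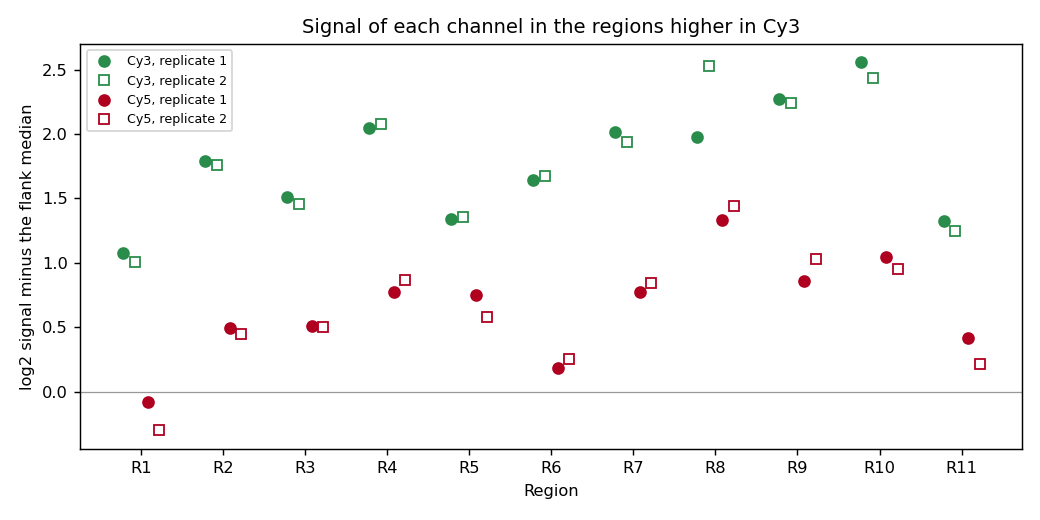
Points show the log2 signal of each channel in R1 to R11 minus the median of that channel over the flank (vertical axis), for Cy3 in green and Cy5 in red, with circles for replicate 1 and open squares for replicate 2. Cy3 lies above Cy5 in every region on both arrays, and Cy5 falls below 0 in R1 on both arrays.

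Over the starts of the protein-coding genes the median ratio was near 0. Of 16 windows with an annotated protein-coding start, 1 was higher in Cy3, against 22 of 290, or 7.59%, on the whole array. The main start of Pex5l lay in a window at -0.01 and -0.02. The window at the start of Ttc14 was at -0.02 and 0.30, that of Ccdc39 at 0.12 and -0.13, and that of Fxr1 at -0.11 and 0.13. For these 3 genes the arrays fell on opposite sides of 0 at this most upstream annotated start. At other starts they could share a sign. The Ttc14 start at 33699113 lay in a window at 0.01 and 0.09, and the Fxr1 start at 33935498 in one at -0.39 and -0.16. Dnajc19 had 0.15 and 0.09 at its start, and Sox2ot 0.18 and 0.12, and neither passed the test (limma adjusted p of 0.464 and 0.371). The 1 called start is an internal one of Ccdc39 at 33725462, in a window at 0.34 and 0.48 (limma adjusted p of 0.0466), and it lies 1.83 kb from the summit of R2. GC content at the Fxr1 start was 68.4%, the highest of any window in the flank.

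Over the bodies of the protein-coding genes the means were below 0, and over Sox2ot just above it. Pex5l, with 186 windows, averaged -0.17 on both arrays, and 0 of its windows were higher in Cy3 and 15 in Cy5. Those 15 are 8.06%, close to the 7.79% of all flank windows, and the flank share for Cy3 was 2.72%. Fxr1 averaged -0.34 on replicate 1 and -0.10 on replicate 2, and Dnajc19 -0.26 and -0.04, so the arrays differed by more there than over Pex5l. Ttc14 was at -0.33 and -0.18. Ccdc39 was at -0.10 and -0.02, with 4 of its 30 windows higher in Cy3, all in or next to R2. The part of Sox2ot in the flank, with 171 of the 1066 flank windows, averaged 0.02 on both arrays. It held 17 of the 29 windows higher in Cy3. The mean over these gene bodies moves with the centring of the array. GC content was under 38% in Ttc14, Fxr1 and Dnajc19, 39.5% in Ccdc39 and 42.0% in Pex5l. It was 45.2% in the part of Usp13 in the flank, which averaged -0.14 and -0.10. Whether GC content bears on these means was not tested.

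Most core matches of the flank lay outside the regions. The exact core was found in 102 of the 1066 flank windows, or 9.57%, and in 10.9% of all windows on the array. Among the windows higher in Cy3 it was in 8 of 29, or 27.6%, and among those higher in Cy5 in 8 of 83, or 9.64%. Read backwards, the same letters were in 1 of the 29, or 3.45%, and in 10 of the 1066 flank windows, or 0.94%. The reversed core is thus much rarer than the core over all windows. Of the 137 core matches in the flank, 78 had at least 3 probes around them. The 9 of these in or near a region had a median of 0.97, from 0.24 to 1.76. The other 69 had a median of -0.08 and a highest value of 0.48. Regions were called from the same ratio, so this split fixes the gap between both sets, and the values are a description. That highest match elsewhere began at 33814138, to the left of R3, and was at 0.45 and 0.51. The left stretch held 74 core matches, and 51 of its measured windows held the core. Its 1 window called higher in Cy3, at 33689000, held 0 core matches. The exact core within 500 bp of a summit was found for 103 of the 209 regions on the whole array (49.3%), and the reversed one for 4. Of all windows on the array, 1.42% hold the reversed core.

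**Figure D4:**
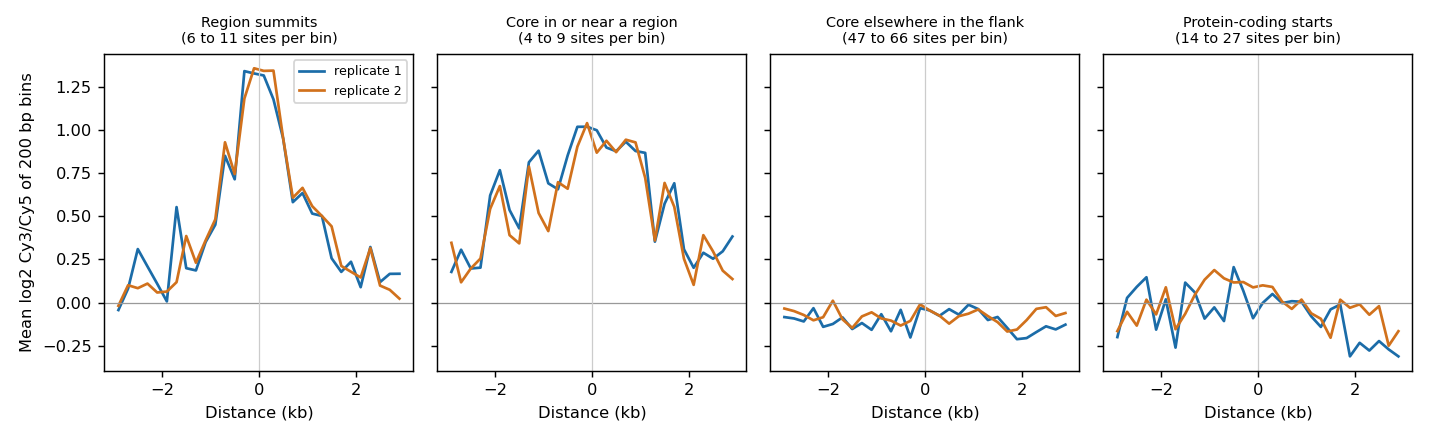
Lines give the mean log2 Cy3/Cy5 ratio in bins of 200 bp on each array against the distance in kb from the region summits, from core matches in or near a region, from core matches elsewhere in the flank, and from protein-coding starts. Region summits reach about 1.3 on both arrays, core matches in or near a region about 1.0, and core matches elsewhere and protein-coding starts stay near 0. Regions and summits were picked by this same ratio, so the first 3 panels describe the selection and test nothing.

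The windows higher in Cy5 numbered 83. Of these, 57 lay between Pex5l and Ttc14, an interval with 405 of the 1066 flank windows. Intergenic were 60, or 72.3%, against 53.5% of all flank windows. That 0 overlapped a region was nearly fixed in advance, since regions are called where the same ratio is high. The lowest window, 33372000 to 33372999, was at -0.93 on replicate 1 and -0.67 on replicate 2 and holds 3 probes. Next came the window at 33630000, at -0.77 and -0.79, and that at 33633000, at -0.92 and -0.60. These windows were dim in both channels. Averaged over the probes of the 83 windows, the Cy3 signal was -1.09 and -1.18 log2 units from the flank median on replicates 1 and 2, and the Cy5 signal -0.66 and -0.77. Their GC content averaged 38.1%, against 41.6% in the windows that passed in neither direction.

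The ratio moved with GC content across the flank. Windows were split into 5 classes of similar size by GC content. In the class with the lowest GC content the mean was -0.36 on replicate 1 and -0.20 on replicate 2, and in the highest class 0.06 and 0.00. From the lowest to the highest class, the windows higher in Cy5 numbered 40, 21, 15, 6 and 1. Those higher in Cy3 numbered 3, 3, 7, 3 and 13. After the GC trend was removed, 27 windows were higher in Cy3 and 16 in Cy5, in place of 29 and 83. The part of GC content in the Cy5-side calls was not tested further.

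**Figure D5:**
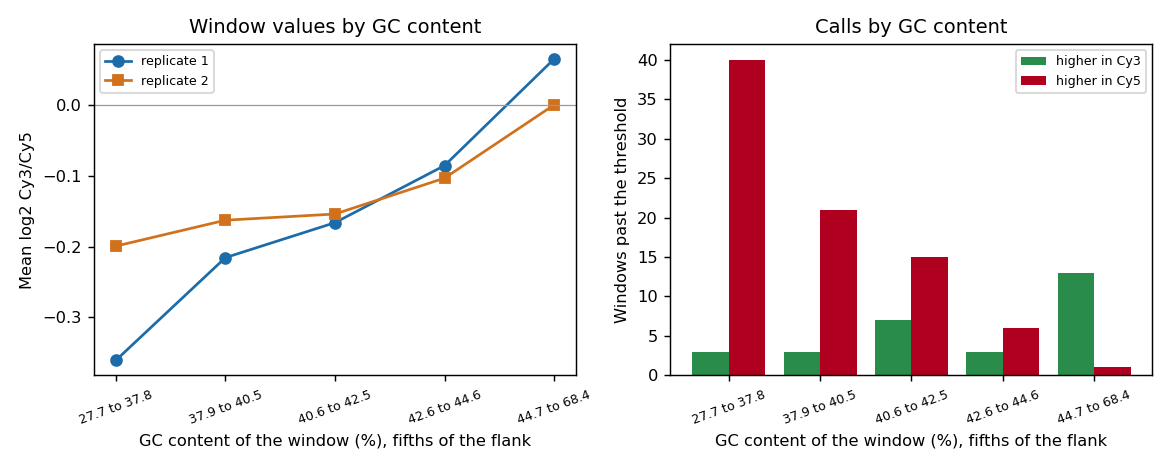
Left, the mean log2 Cy3/Cy5 ratio of windows in 5 classes of GC content on each array. Right, the number of windows past the limma threshold in each class, higher in Cy3 in green and higher in Cy5 in red. Both arrays rise with GC content, replicate 1 from -0.36 to 0.06, and the Cy5-side calls fall from 40 to 1.

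Set beside the rest of the array, the flank was lower and its arrays less alike. Its windows averaged -0.15 on replicate 1 and -0.12 on replicate 2, or -0.14 ± 0.02 (SD, n = 2), against -0.06 and -0.04 over the 13881 windows elsewhere. The rest of the same tiled segment, 2067 windows to the right of the flank, averaged -0.07 and -0.05. Across windows the arrays had Pearson r = 0.577 and Spearman rho = 0.408 in the flank, and 0.690 and 0.498 in the rest of the segment. Windows share arrays and neighbouring fragments, so these correlations are descriptions across positions. The flank held 7.86 regions higher in Cy3 per Mb, the rest of the segment 10.4 and the whole array 11.98. These are per Mb of span, and the share of the span that was measured differs. Windows numbered 1066 over 1.4 Mb in the flank, 2067 over 2.60 Mb in the rest of the segment and 14947 over 17.4 Mb on the array. Its highest summit, that of R6, ranked 47th of the 209 regions of the array. None of these differences between stretches was tested, since the 2 arrays share every probe and other stretches differ in genes and base composition. Over the flank the median spot signal was 795 (Cy3) and 2470 (Cy5) on replicate 1 and 1011 and 2925 on replicate 2. On the whole array it was 1072 and 3036 on replicate 1 and 1369 and 3685 on replicate 2. The flank was thus dimmer in both channels, and whether this bears on its lower ratio or correlation was not tested. At least 90.5% of the flank's spots were well above background in each channel.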

How the data were processed

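Both arrays are Agilent tiling arrays read with Feature Extraction 10.5.1.1, per the file headers. The processed intensities the authors deposited are background-subtracted and scaled by 1 linear dye factor per channel, with positions in mm9. The authors also deposited a table of smoothed log2 ratios, which served as an alternative. The paper names Ringo as the software for its ChIP-chip data. Rows of this table were paired by order with spots sorted by probe number, after 3 spots were left out. Among 0 to 6 spots left out, 3 gave the highest Pearson r with the ratios used here, 0.687 and 0.694 on replicates 1 and 2. With 2 left out r was 0.550 and 0.558. The identity of these rows is therefore inferred, and results with the deposited values depend on it. The files also hold 0 or 1 spot marks. Control spots and 27 outlier spots were left out. The log2 Cy3/Cy5 ratio was centred on the median of each array with no loess. Windows of 1 kb with at least 3 probes were tested with limma 3.58.1 (lmFit and eBayes, R 4.3.3), two-sided, with Benjamini-Hochberg adjustment. Regions needed at least 3 positions with a running median (5 or more values) above the 0.99 quantile of a null built by mirroring the values on the other side of the mode, joined within 600 bp, and overlap was counted from 1 bp. Genes come from GENCODE M1 on NCBIM37, the same build. The limma test and the region caller were tested on simulated data with known shifts. Other steps ran in Python 3.11.15 with scipy 1.17.1, pandas 2.3.3 and numpy 2.4.6.

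Named were all regions called in the flank, the most extreme windows in each direction, every protein-coding gene overlapping the flank, and the motif matches inside regions. Sequences shown lie within 500 bp of a summit, and that of R9 lies outside its region. Sox2ot was named as the gene that holds 7 of the regions. The stretch, the lists and the rules were chosen with earlier results of these data known. Alternatives covered background correction, loess, probe filters, the deposited values, GC content, window size, variance prior, region caller settings and each array alone.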

Additional observations from a re-analysis of the deposited data

How the results depend on the processing

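The 29 windows higher in Cy3 became 19 with 2 kb windows and 44 with 500 bp windows, and stayed within 1.5 times of 29 in the other settings. Beyond 0.634 were 14 windows by the mean and 14 to 15 on single arrays. The 83 windows higher in Cy5 were less stable, at 135 with no background correction, 20 with loess, 23 with well-measured probes (above background), 18 with the deposited table, 16 with the GC trend removed, 0 with the trended robust prior, 143 with 500 bp and 128 with 2 kb windows. Cy3-side calls were 25.9% of all calls, and 41.7%, 17.2%, 57.4%, 54.0%, 53.8% and 62.8% with normexp, no background correction, loess, well-measured probes, the deposited table and the GC trend removed. The median of the flank moved from -0.15 to -0.06 with normexp.

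The 11 regions higher in Cy3 became 19 with normexp and 17 with the GC trend removed, and 9 to 15 otherwise. All 11 were found in 10 of the 13 settings, and R5 and R8 were lost with a stricter null quantile, a running median within 200 bp or at least 6 positions. Regions higher in Cy5 numbered 179 with the 0.95 quantile, 18 with the Cy3-side threshold in both directions and 1 with a running median within 200 bp, against 0. The share of regions called on both arrays alone, 81.8%, was 47.4% with normexp and 100% with a running median within 200 bp. Each array alone gave 9 to 11 regions higher in Cy3 and 1 to 2 higher in Cy5.

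The mean of the flank, -0.14, was -0.0494 with normexp, -0.0614 with loess, -0.093 with well-measured probes, -0.0917 with the deposited table and -0.0665 with the GC trend removed, and -0.15 to -0.12 on single arrays. The median of the 10 highest regions' summit windows, 1.26, was 1.16, 1.22, 1.18, 1.19 and 1.26 with normexp, no background correction, loess, the deposited values and the GC trend removed. The median of the start windows, 0.00, was -0.0695 with the GC trend removed and -0.021 to 0.0617 on single arrays. The correlation of the arrays, 0.577, was 0.634, 0.532, 0.524 and 0.518 with no background correction, loess, the GC trend removed and 500 bp windows. Interval means changed sign, to 0.0224 (normexp) and 0.0143 (GC) over Ttc14 and Ccdc39, to 0.0115 (normexp), 0.00999 (loess) and 0.00496 (deposited) from Ccdc39 to Fxr1, and to 0.0135, 0.00986 and 0.0137 under normexp, loess and GC from the first region on. The cause was not tested. The CTCF consensus with at most 1 mismatch was an alternative chosen after seeing the data, and gave the same 27.6%.

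No paired analysis was possible because the series holds a single group. With 2 arrays and no dye swap, a difference between dyes cannot be told apart from one between samples.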
